A study of Mus musculus with 2 samples.

Results

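The cells described here were endothelial cells of the mouse spinal cord in which interferon-response transcripts were detected together. They were selected on measured values. In the CD133+ non-traced library, a cell entered the endothelial gate when it held a UMI (unique molecular identifier, a tag that marks a single captured RNA molecule) of 5 or more of Cldn5, Flt1, Pecam1, Ly6c1, Slco1a4, Itm2a, Cdh5 and Ly6a, and of at most 1 of the ependymal genes Ccdc153, Fam183b, Tmem212, Foxj1, Rsph1 and Dynlrb2. Members held, in addition, a UMI of 4 or more of Ifit1, Ifit2, Ifit3, Irf7, Isg15, Rsad2, Tgtp1 and Oasl2. Of 23189 gate cells, 11372 were members (49.0%, exact binomial 95% interval 48.4% to 49.7%), out of 25411 cells in the library and 30236 in the series. The reference was the 1405 gate cells (6.06%) without a UMI of any of the 8 genes, and 10412 gate cells lay between.

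The series holds 2 libraries of live CD45-negative, CD133-positive spinal cord cells from adult C57BL/6j mice of 10 to 12 weeks, with Cre at both Clec9a alleles and a loxP-stop tdTomato reporter at both Rosa26 alleles (Clec9a cre/cre R26 LSLtdTomato/LSLtdTomato). CD133 is the surface protein prominin 1, and Clec9a encodes the receptor DNGR-1. Cells with current or past Clec9a expression are tdTomato-positive (DNGR-1 traced), and members came from the tdTomato-negative sort of the same genotype, with no treatment named in the labels. Each sort was 1 library, so no comparison below has a replicate, and cells of 1 library were not used as replicates. Intervals given are exact and cover counting error only. The number of animals behind each library was not given in the sources used here, and transcripts of Xist and of Y-linked genes in separate cells showed that animals of both sexes contributed.

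Type I interferons bind the receptor IFNAR on nearly every cell, and the kinases JAK1 and TYK2 then activate transcription factors, among them STAT2 with its partner IRF9, that switch on genes that restrict viruses, sense nucleic acids, present antigen and limit the response itself. Many of these genes carry in their promoters the interferon-stimulated response element, the site to which these factors bind. Endothelial cells line the vessels, meet blood-borne interferon directly, and in the central nervous system form the blood-brain and blood-spinal cord barriers.

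The promoters of the selecting genes are shown because the element that defines the response can be read in them. A core of the element was searched as GAAA, 2 bases of any kind, then GAAA, on both strands of the RefSeq promoters (GRCm38.p6, 250 bases before to 50 after each start). Isg15, Ifit1, Ifit3, Rsad2 and Tgtp1 held it, as did Cxcl10, a chemokine gene described below that did not select the cells. Stretches with 20 bases on either side of the matches were chr4:156200855-156200916 for Isg15 (minus strand), chr19:34640765-34640833 for Ifit1 (plus), chr19:34583353-34583436 for Ifit3 (plus), chr12:26456543-26456592 for Rsad2 (minus), chr11:48992294-48992343 for Tgtp1 (minus) and chr5:92349073-92349122 for Cxcl10 (minus). Each is printed 5′ to 3′ on the strand of its gene, with the matches in capitals; TTTC marks a match on the opposite strand.
Isg15: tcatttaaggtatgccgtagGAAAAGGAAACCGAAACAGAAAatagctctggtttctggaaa
Ifit1: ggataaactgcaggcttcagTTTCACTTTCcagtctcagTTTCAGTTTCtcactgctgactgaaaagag
Ifit3: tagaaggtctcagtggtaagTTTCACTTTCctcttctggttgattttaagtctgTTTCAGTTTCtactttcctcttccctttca
Rsad2: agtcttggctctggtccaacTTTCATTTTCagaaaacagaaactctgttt
Tgtp1: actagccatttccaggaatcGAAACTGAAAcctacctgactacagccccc
Cxcl10: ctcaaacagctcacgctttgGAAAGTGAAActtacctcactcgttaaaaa

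Isg15 held 3 overlapping matches within 62 bases shown, beginning 78 bases before its start, whereas Ifit1 and Ifit3 held 2 separate ones each. These letters were not in the windows of Ifit2, Irf7 and Oasl2. Over all 32851 promoters, 1131 (3.44%) held a match, or 1079 of 27025 genes (3.99%). Of the 122 interferon-list genes with a promoter in the table that did not select the cells, 44 (36.1%) held it, among them 10 of 11 interferon-inducible GTPases and 0 of 8 receptors and kinases. A match describes letters and not a bound site. Ifit1, Ifit2, Ifit3 and Ifit3b lie beside each other on chromosome 19, between Ifit2 (34550694 to 34576419) and Ifit1 (34640871 to 34650009).

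The label of interferon-responding endothelial cells was checked on genes that the gate did not use. A list of 16 barrier genes summed to 8464 UMIs per 1000000 UMIs of the set (CPM) in members and 669 CPM in the 298 ependymal cells of the same library. Kdr, the main VEGF receptor of endothelium, stood at 502 CPM against 34.7 CPM. The 8 endothelial genes of the gate had a UMI in at least 97.3% of members, which the gate itself sets, and in 90.2% to 99.9% of reference cells. No separate population was seen in the number of interferon genes. Gate cells held every number from 0 to 8 with a single broad peak: 1405, 2958, 3673, 3781, 3712, 3504, 2610, 1292 and 254 cells. No gap lay at the threshold between 3 and 4 genes. The number also moved with depth. Median UMIs per cell were 5395 in cells with none of the genes, 7878 with 4 and 13824.5 with all 8, and members had 9717.5 (range 1489 to 53195) against 5395 (1075 to 18708) in the reference. Members made up 26.7% of the shallowest of 5 equal depth classes of the gate and 81.2% of the deepest. When each of the 22981 gate cells with 3000 UMIs or more was thinned to 3000 (208 shallower ones left out), 4302 (18.7%, 18.2% to 19.2%) still held 4 or more of the genes and 3748 (16.3%) held none. The plot of cells by number of genes shows both distributions.

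**Figure D1:**
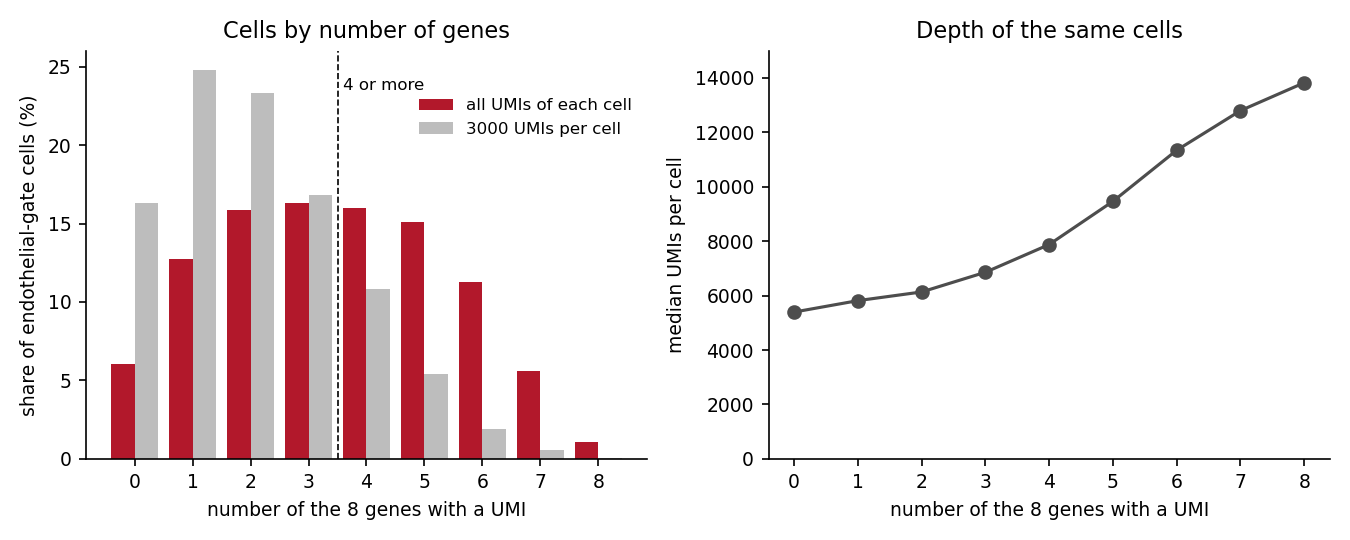
Left, share of endothelial-gate cells (%) by the number of the 8 selecting genes with a UMI, with all UMIs of each cell (red) and after thinning to 3000 UMIs per cell (grey); the dashed line marks the threshold. Right, median UMIs per cell for the same numbers with all UMIs. Both distributions have a single peak, and median depth climbs from 5395 to 13824.5 UMIs.

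Mitochondrial transcripts took a median of 3.14% of UMIs in members and 3.92% in the reference. Droplets that captured 2 cells were not called and were kept, but cells with UMIs of both Xist and a Y-linked gene (Ddx3y, Eif2s3y, Kdm5d or Uty) show RNA of both sexes in 1 barcode. They were 1469 members (12.9%, 12.3% to 13.5%) with a median of 15856 UMIs, and 31 reference cells (2.21%, 1.504% to 3.12%) with 7072 UMIs. Without them 9903 members and 1374 reference cells remained. By the measure given below, 36 of 107 interferon genes and 61 of all 8287 genes tested were then higher. The median difference of the interferon genes was 0.72, against 0.70 with those cells. The 2 libraries shared 42 cell barcodes, 19 of them members.

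The selecting genes are described without a test, since they chose the cells. Isg15 encodes a ubiquitin-like protein that is attached to other proteins, and it stood at 697 CPM in members with a UMI in 98.1% of them. The IFIT proteins bind viral RNA. Ifit1 stood at 308 CPM (86.5% of members), Ifit3 at 104 CPM (56.5%) and Ifit2 at 36.4 CPM (24.7%). Irf7, the transcription factor that amplifies interferon production, stood at 222 CPM (85.5%), and Rsad2, which encodes viperin, an enzyme that makes an antiviral nucleotide, at 204 CPM (73.9%). Oasl2, of the oligoadenylate synthetase-like family, stood at 160 CPM (80.1%), and Tgtp1, an interferon-inducible GTPase, at 15.1 CPM (14.4%). Ifit3 has the near-identical copy Ifit3b and Tgtp1 the copy Tgtp2, so the division of reads within each pair is uncertain. In ependymal cells of the same library, which should hold little of these RNAs, the shares with a UMI ran from 0.336% for Tgtp1 to 5.03% for Isg15 at a median of 6332 UMIs.

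The members carried 136 different combinations of the genes. The commonest, all but Ifit2 and Tgtp1, was found in 1535 members (13.5%), and the same without Ifit3 in 1194 (10.5%). The summed level of the 8 genes per member ran from 695 CPM at the 10th percentile over 1615 CPM at the median to 3659 CPM at the 90th, with a highest value of 69686 CPM. Just inside the threshold, cells with 4 genes had 501 CPM of Isg15, 188 CPM of Ifit1 and 174 CPM of Irf7. Just outside it, cells with 3 had 358 CPM, 117 CPM and 140 CPM.

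Members and reference were compared over 8288 genes with a mean of at least 10 CPM in the 2 sums, without the selecting and gate genes, as a difference of log2(CPM + 1), which understates the change of low genes. A difference of at least 1, a 2-fold change, was found higher in members for 56 genes (0.676%) and lower for 8 (0.0965%), and the median over all genes was 0.03. Of the interferon genes that had not selected the cells, 36 of 107 (33.6%) were at least 2-fold higher and 0 lower. The median of the 107 was 0.70, and 103 of them lay above 0, as did 4970 of all 8288 genes. The 36 include Ifit3b and Tgtp2, near-identical copies of selecting genes. Their summed level was 20830 CPM in members and 15096 CPM in the reference, 1.38-fold. The selecting genes and these genes belong to the same response and were read in the same cells, so this difference describes the members and is no independent test of them.

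At the top of the pathway the members hardly differed from the reference. Of 11 interferon ligand genes 2 were in the table, Ifnk with 1 UMI in members and Ifng with 0, and Ifnb1 was not listed. The type I receptor genes were close in both sets, Ifnar1 at 197 CPM (195 to 200) against 183 CPM (174 to 192) and Ifnar2 at 251 CPM against 244 CPM. Ifngr1, a subunit of the interferon-gamma receptor, stood at 80.6 CPM against 74.0 CPM. Of 8 receptor and kinase genes tested, 0 passed 2-fold and the median difference was 0.11.

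Of 7 transcription factors of the response tested, 3 were past 2-fold, and the median difference of the 7 in log2(CPM + 1) was 0.32. Stat2 stood at 56.4 CPM (55.1 to 57.7) in members and 17.7 CPM (14.9 to 20.9) in the reference, 3.18-fold, and its partner Irf9 at 117 CPM against 49.1 CPM, 2.38-fold. Irf1, which interferon-gamma induces strongly, was at 145 CPM against 127 CPM, a difference of 0.20, and Irf2, which opposes it, at 159 CPM against 154 CPM.

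Nucleic acid sensors and antiviral effectors held most of the large differences. Of 6 sensors tested 3 were higher, among them Zbp1, a sensor of Z-form nucleic acids that can trigger cell death, at 20.7 CPM against 1.85 CPM (11.2-fold), and Ifih1, which encodes the RNA sensor MDA5, at 88.8 CPM against 36.7 CPM (2.42-fold). Of 36 effectors tested 19 were higher. Oasl1, which restrains the translation of Irf7, stood at 20.5 CPM (19.7 to 21.3) against 1.60 CPM (0.852 to 2.74), 12.8-fold, and Ifit3b at 51.7 CPM against 5.54 CPM, 9.34-fold. Ifit3b carries the reservation on its copy Ifit3, which helped to choose both sets. Ifi44 was 4.59-fold higher and Mx2 4.10-fold. Mx2 belongs to the dynamin-like GTPase family and is annotated as a polymorphic pseudogene in the gene set used. Cmpk2, a mitochondrial nucleotide kinase beside Rsad2 on chromosome 12, was 3.89-fold higher and Rtp4 3.68-fold. Slfn2, of the Schlafen family, and Phf11d were each 3.10-fold higher. Bst2, the tetherin that holds budding virions at the surface, stood at 521 CPM against 274 CPM (1.90-fold) and Ifitm3, which blocks viral entry, at 2744 CPM against 1584 CPM (1.73-fold). Both were just short of the 2-fold line. Ifitm1 was the effector that lay below 0, at 69.7 CPM against 83.9 CPM. Mx1 had 176 UMIs in members and 1 in the reference, under the 10 CPM minimum.

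Among the genes of ISG15 conjugation, the one for removal differed most. Usp18, the protease that takes ISG15 off proteins and also blocks the receptor IFNAR2, stood at 74.2 CPM (72.7 to 75.7) against 12.7 CPM (10.3 to 15.4), 5.86-fold, and was the 1 of 5 genes past 2-fold. The conjugating enzymes Ube2l6 and Herc6 were 1.77-fold and 1.94-fold higher, and the activating enzyme Uba7 1.16-fold.

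The interferon-inducible GTPases, which attack the membranes around intracellular pathogens, had the highest median of the interferon lists, 1.28, and 8 of 12 passed 2-fold. The immunity-related GTPases Iigp1 (157 CPM against 52.4 CPM), Igtp (84.0 CPM against 28.2 CPM), Irgm1 (116 CPM against 39.99 CPM) and Irgm2 (62.5 CPM against 20.9 CPM) were each between 2.91-fold and 2.99-fold higher. The guanylate-binding proteins differed less, with Gbp7 at 2.10-fold, Gbp3 at 2.09-fold and Gbp2 at 1.75-fold. Tgtp2 was 4.39-fold higher, with the reservation on its copy Tgtp1.

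Antigen presentation by MHC class I was higher throughout and by little. All 21 genes lay above 0, as did 4970 of all 8288 genes. Of the 21, 1 passed 2-fold, and their median difference was 0.34. B2m, the light chain of the class I molecule, stood at 1207 CPM (1201 to 1213) against 930 CPM (909 to 951), and the heavy chain gene H2-K1 at 894 CPM against 762 CPM. The gene past 2-fold was Tap1, a subunit of the peptide transporter, at 41.1 CPM against 18.2 CPM, and the immunoproteasome subunit Psmb8 was 1.66-fold higher. The 7 MHC class II genes were all under 10 CPM.

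Secreted and inhibitory genes had few large differences. The chemokine and cytokine genes had a median of 0.45 and the negative regulators of 0.17. Cxcl10, the chemokine that draws T cells through CXCR3, stood at 25.8 CPM against 7.75 CPM (3.32-fold) and was the 1 of 7 chemokine and cytokine genes past 2-fold. Cd274, which encodes PD-L1, was at 21.5 CPM against 10.6 CPM, a difference of 0.96 that stayed under the line of 1, and Il15 at 16.2 CPM against 19.7 CPM. Of 5 negative regulators 0 passed 2-fold, with Socs1, an inhibitor of the JAK kinases, at 16.4 CPM against 9.48 CPM and Socs3, better known from IL-6 signalling, at 205 CPM against 203 CPM. The NF-kB response and adhesion genes, which inflammation induces in endothelium, had 0 of 11 past 2-fold and a median of 0.14. Icam1 was at 98.1 CPM against 98.7 CPM and Vcam1 at 130 CPM against 95.9 CPM. The plot of differences by list sets these groups side by side.

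**Figure D2:**
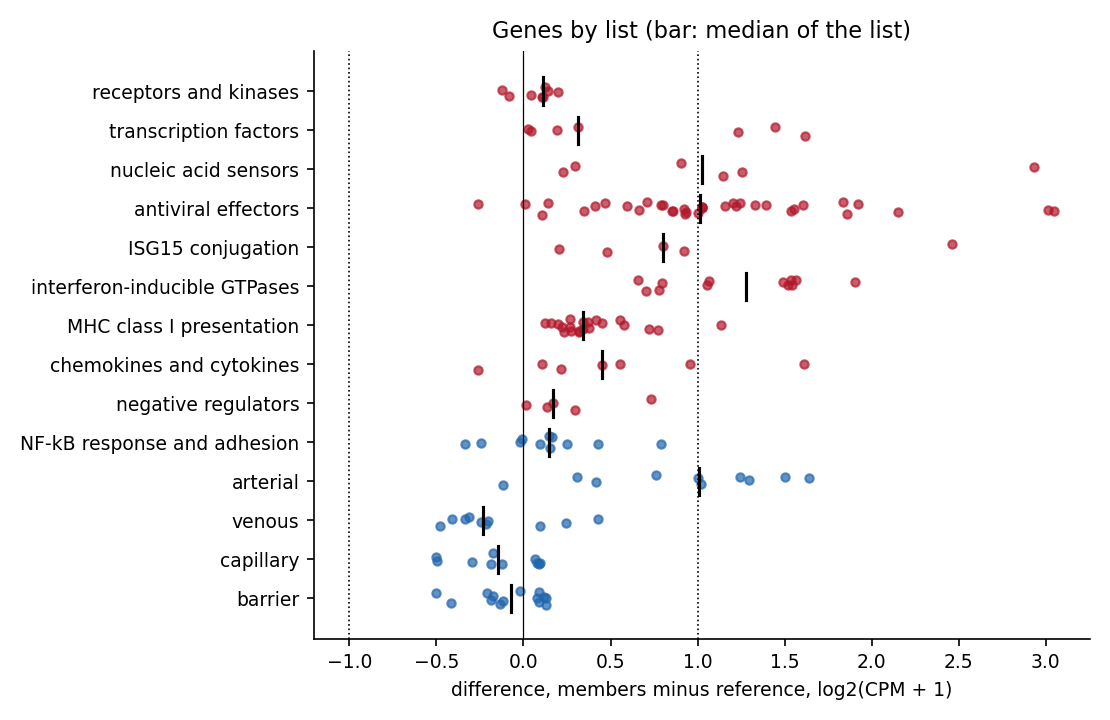
Each point is a gene with a mean of at least 10 CPM, placed at its difference between members and reference in log2(CPM + 1); red, interferon lists; blue, other endothelial lists; black bars, list medians; dotted lines, 2-fold. GTPases, sensors and effectors center between 1.01 and 1.28, MHC class I genes at 0.34, receptors and kinases at 0.11, and the arterial list at 1.01.

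Along the number of selecting genes, the held-out genes climbed in small steps. Their summed level was 15096 CPM (15012 to 15181) with none, 18280 CPM with 3, 19350 CPM with 4 and 25347 CPM (25190 to 25504) with all 8. Stat2 and Irf9 together went from 66.8 CPM to 239 CPM, the GTPases from 576 CPM to 2224 CPM and MHC class I genes from 5302 CPM to 7224 CPM. Cxcl10 behaved otherwise: it stayed between 6.67 CPM and 16.7 CPM up to 6 genes, then stood at 32.2 CPM with 7 and 319 CPM (302 to 337) with 8. The interval does not cover spread between cells, and 18 members held 50% of the Cxcl10 UMIs of all members. At equal depth of 3000 UMIs the order of the summed held-out level was the same, from 16271 CPM in cells with none to 22481 CPM with 4 and 33995 CPM with 7, and the 14 cells with 8 had 43667 CPM.

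**Figure D3:**
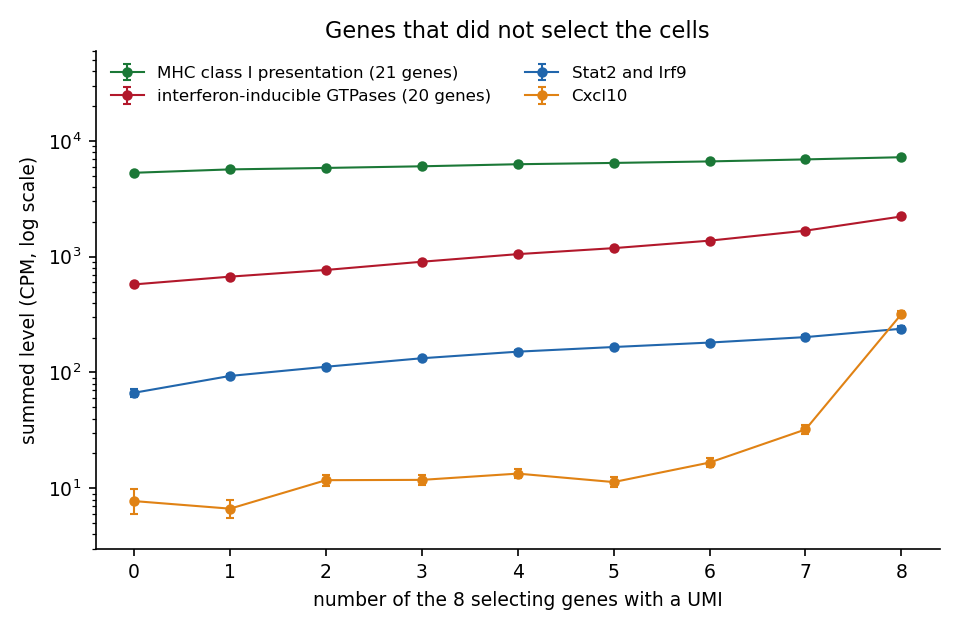
Summed level (CPM, log axis) of genes that did not select the cells, by the number of the 8 selecting genes with a UMI; bars are exact Poisson 95% intervals and are mostly smaller than the points. Stat2 and Irf9 together and the GTPases climb at every step, MHC class I genes climb slowly, and Cxcl10 stays at or under 16.7 CPM up to 6 genes and reaches 319 CPM at 8.

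Because the UMIs that select a cell also raise its measured level, each cell's UMIs were divided at random into 2 parts, the rule was applied to part 1 and levels were read in part 2. The 6868 cells with 4 or more genes in part 1 had 1942 CPM of the 8 genes in part 2 (1929 to 1955) and the 3168 cells with none had 336 CPM (325 to 348), 5.78-fold. Single genes differed between 3.18-fold for Irf7 and 9.71-fold for Ifit3. Within 5 depth classes the ratio ran from 6.12-fold in the deepest, where 19 cells had none, to 9.45-fold in the shallowest. Of the cells selected in part 1, 68.2% again had 4 or more genes in part 2, against 1.17% of those with none, but the former were deeper, with 5526.5 against 2818 median UMIs in part 2. In the shallowest depth class, with medians of 2706 and 2530 UMIs, the shares were 54.8% (52.1% to 57.5%) and 0.576% (0.298% to 1.004%). In the deepest, with 10664 and 9374 UMIs, they were 82.5% (80.4% to 84.5%) and 5.26% (0.133% to 26.0%). Part 2 reads the same 8 genes in the same cells of the same library. A cell high in part 1 therefore tends to be high in part 2. These values describe how the counts repeat within a cell, are no independent test of the members and do not replace a replicate.

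Of the 20 genes with the largest differences upward, 15 belonged to the interferon lists, 1 was arterial and 4 were haemoglobin genes. The 4 largest were Hba-a1, Hbb-bs, Hbb-bt and Hba-a2, between 14.7-fold and 19.4-fold. Each gene had its UMIs concentrated in few cells: 10 members held 50% of the 111867 UMIs of Hbb-bs. The 81 members with at least 20 haemoglobin UMIs held 98.8% of all haemoglobin UMIs of members, and without such cells the haemoglobin level was 20.1 CPM in members and 32.9 CPM in the reference. The 3 largest differences downward, S100a9, S100a8 and Retnlg, which neutrophils express, came from a single reference cell with 1588, 1047 and 242 UMIs. Next came Slc1a2, an astrocyte glutamate transporter, at 2.97 CPM against 17.8 CPM, with 88 of 145 reference UMIs in 1 cell. Acta2 and Tagln, of contractile mural cells, were at 78.1 CPM against 165 CPM and 68.6 CPM against 149 CPM. In the reference, 50% of their UMIs lay in 6 and 5 cells. Rn18s-rs5, a ribosomal RNA copy whose counts are uncertain, was at 0.495-fold. The metallothionein gene Mt3 was at 15.9 CPM against 35.3 CPM, with 50% of its reference UMIs in 26 cells. Rrad and the tropomyosin gene Tpm2 were at 7.53 CPM against 15.8 CPM and 29.8 CPM against 59.3 CPM, with 50% of the reference UMIs in 2 and 7 cells. Of the 8 genes called lower, 0 were called when cells with 2 or more genes of another cell type's list were left out. Of 8164 genes then tested 65 were higher, 36 of them among the 108 interferon genes.

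RNA of other cell types was present in members, most of it of the pericyte and smooth muscle list. Vtn of that list stood at 507 CPM against 724 CPM, with a UMI in 32.8% of members. Of the members 24.6% held 2 or more genes of the list, against 16.4% of reference cells. The pericyte and smooth muscle list summed to 1067 CPM in members and 1590 CPM in the reference, with Pdgfrb at 48.8 CPM against 59.6 CPM. Of its 11 genes 11 lay below 0, whereas 4970 of all 8288 genes lay above 0. The astrocyte list summed to 244 CPM against 350 CPM. The leukocyte and microglia list summed to 2.86 CPM against 34.1 CPM, with 9 UMIs of Ptprc, the gene for CD45, in all members. Few cells can set this difference. Of reference cells 2 (0.142%) and of members 8 (0.0703%) held 2 or more genes of this list. The 43 reference UMIs of C1qb lay in 0.142% of reference cells. At their greater depth 31.9% of members and 19.7% of reference cells held 2 or more genes of such a list. The part of this RNA in the differences was tested only by leaving those cells out, as given above.

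Arterial genes were the largest group outside the interferon lists. Of 10 tested 5 were at least 2-fold higher in members, with a median of 1.01, and the list summed to 1187 CPM against 634 CPM. Gkn3, a marker of arterial endothelium in the central nervous system, stood at 225 CPM (222 to 228) against 71.6 CPM (65.9 to 77.7), 3.14-fold. Vegfc, a lymphatic and vascular growth factor, was 2.90-fold higher, the kinase gene Bmx 2.51-fold, the semaphorin Sema3g 2.40-fold and the phosphatase gene Alpl 2.04-fold. Venous genes went the other way, with a median of -0.23 and 3 of 10 above 0, against 4970 of all 8288 genes. The amino acid transporter Slc38a5 stood at 212 CPM against 282 CPM, while Vcam1, in this list too, was higher. Against a reference standardised to the members' depth, Vcam1 was lower in members, at 130 CPM against 139 CPM. The capillary list had a median of -0.15, with Mfsd2a, the lipid transporter of barrier endothelium, at 272 CPM against 310 CPM. The barrier list, with 0 of 14 past 2-fold, summed to 8464 CPM against 8468 CPM.

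At an equal 1000 UMIs per cell, to which every gate cell could be thinned, 19.7% of members (19.0% to 20.5%) and 8.33% of reference cells (6.94% to 9.90%) held 2 or more arterial genes. For venous genes the shares were 33.2% (32.3% to 34.1%) and 41.8% (39.2% to 44.4%), and for capillary genes 89.0% and 91.3%. Without thinning, the arterial shares were 65.7% and 30.5%, and the venous and capillary differences changed sign with the members' greater depth (88.0% against 86.6%, and 99.6% against 98.9%). At 1000 UMIs, 20452 gate cells held 2 or more genes of 1 segment list and more than of either other list, and 2737 were left out. Of these classes the arterial cells were highest. The 1749 arterial cells had 1563 CPM of the 8 genes (1544 to 1583) and 55.1% members, against 1214 CPM and 48.1% in 17667 capillary cells and 1160 CPM and 48.4% in 1036 venous cells, with medians of 7177, 7085 and 7857.5 UMIs. Cxcl10 had another order, at 120 CPM in venous, 13.7 CPM in capillary and 5.74 CPM in arterial cells. Few cells can set this order, since 18 members held 50% of the Cxcl10 UMIs of all members, with 437 in 1 cell.

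The levels also differed with sex-linked RNA. Of gate cells with Xist and no Y-linked UMI, 58.0% (56.9% to 59.1%) of 7782 were members, and of those with a Y-linked UMI and no Xist 43.6% (42.6% to 44.7%) of 8661, although the former were shallower (7055.5 against 7682 median UMIs). At 3000 UMIs per cell, 25.4% (24.4% to 26.4%) and 13.99% (13.3% to 14.7%) held 4 or more of the 8 genes. Every one of the 8 was higher in the Xist cells, from 1.23-fold for Ifit2 (27.1 CPM against 22.005 CPM) to 1.82-fold for Ifit3 (92.8 CPM against 51.0 CPM), with Isg15 at 638 CPM against 426 CPM. Usp18 was at 69.3 CPM against 47.6 CPM, B2m at 1160 CPM against 1139 CPM and Gkn3 at 210 CPM against 202 CPM. How many animals of either sex were pooled is not given, so sex and animal cannot be told apart.

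Within either class the members differed from the reference much as in the whole. Among Xist cells 4517 members and 295 reference cells gave 39 of 109 interferon genes at least 2-fold higher, with a median of 0.77. Over all genes 75 of 8337 were at least 2-fold higher there, with a median of 0.02. Among Y-linked cells 3778 members and 630 reference cells gave 29 of 106 interferon genes, with a median of 0.62. Over all genes it was 50 of 8282, with a median of 0.03. Gkn3 was at 229 CPM against 38.5 CPM in Xist cells and 239 CPM against 85.0 CPM in Y-linked cells.

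**Figure D4:**
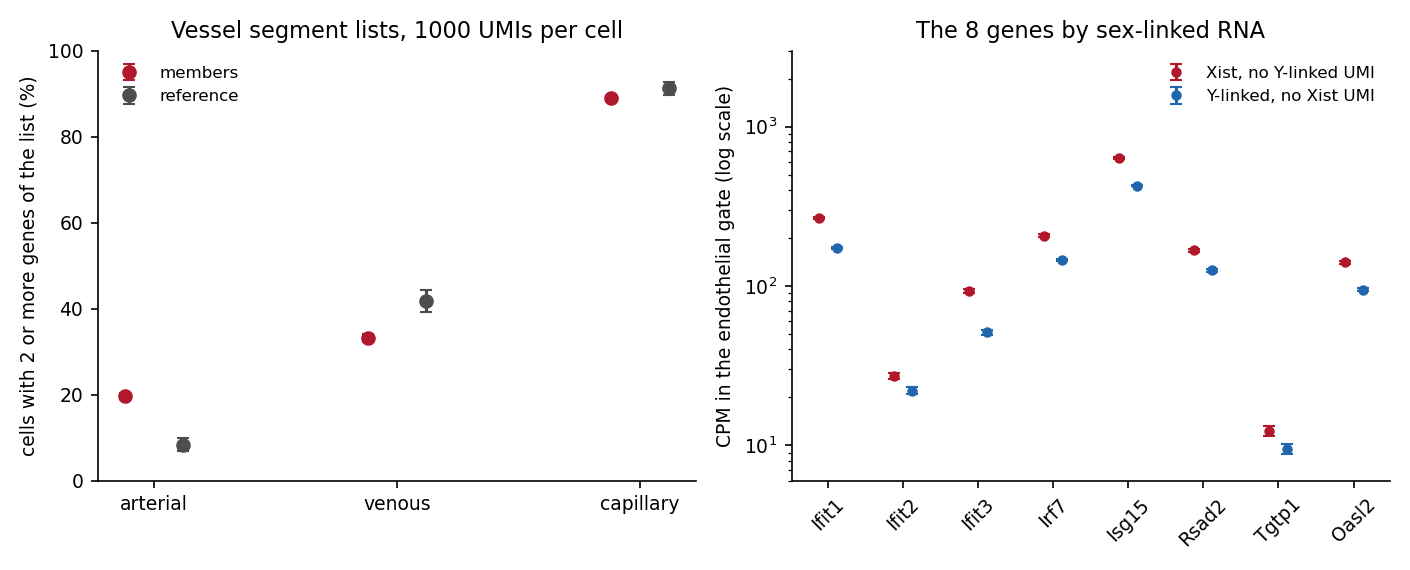
Left, share of cells (%) with 2 or more genes of each vessel segment list at 1000 UMIs per cell, in members (red) and reference (grey), with exact binomial 95% intervals. Right, level (CPM, log axis) of the 8 selecting genes in gate cells with Xist and no Y-linked UMI (red) and with Y-linked and no Xist UMI (blue), with exact Poisson 95% intervals. Members lie above the reference for arterial genes and below for venous genes, and all 8 genes are higher in the Xist cells.

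A thin upper tail held 39.7% of the Cxcl10 UMIs and 83.5% of the Cxcl9 UMIs of the gate. The 232 gate cells at or above the 99th percentile of the summed level of the 8 genes (6013 CPM) included 231 members and were shallower than the rest, with 5724.5 against 7164 median UMIs. Outside the selecting genes, 13 of the 15 largest differences were in the interferon lists, and the 2 largest were chemokines. Between members and reference, interferon genes were 107 of all 8288 tested, and this share was not counted for the tail. The tail was cut on the level of genes of the same response, so these differences describe it and are no independent test. Cxcl10 stood at 1064 CPM (1013 to 1117) in the tail and 11.9 CPM (11.4 to 12.4) in the rest, and its UMIs came from 38 tail cells. The rest here is all other gate cells. In the 11141 members outside the tail Cxcl10 stood at 13.0 CPM (12.4 to 13.6), with a UMI in 510 of them. Cxcl9, which interferon-gamma induces, stood at 91.9 CPM against 0.134 CPM, with 142 of the 170 UMIs of the gate in 4 tail cells. Cd274 was at 122 CPM against 16.8 CPM, Mx1 at 28.5 CPM against 0.668 CPM, Oasl1 at 177 CPM against 12.8 CPM and Socs1 at 46.0 CPM against 14.98 CPM, while Icam1 was at 90.6 CPM against 94.97 CPM. Ptprc had 0 UMIs in the tail, which allows a level of up to 1.94 CPM. Over all members, 18 cells held 50% of the Cxcl10 UMIs, with 437 in 1 cell, whereas 2458 cells held 50% of the Isg15 UMIs.

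The 8 genes were detected in endothelial cells of both libraries and were nearly absent from ependymal cells of both. In the traced library 59 cells met the endothelial gate, and 34 of them (57.6%, 44.1% to 70.4%) held 4 or more of the genes, with 1630 CPM (1529 to 1736) in sum against 1258 CPM in the non-traced gate. In ependymal cells, taken as cells with 4 or more ependymal and at most 1 endothelial gene, the sum was 31.0 CPM (23.6 to 40.005) in 298 non-traced and 18.4 CPM (17.2 to 19.7) in 4722 traced cells. The rule's 4 genes were reached by 0 of 298, which allows a share of up to 1.01%, and by 6 of 4722 (0.127%). At 1000 UMIs per cell, 25.6% of the non-traced and 32.2% of the traced endothelial cells held 2 or more of the genes, against 0% and 0.0635% of the ependymal cells, and with all UMIs the shares were 81.2%, 94.9%, 0.671% and 1.19%. The interval of the 59 traced endothelial cells (20.6% to 45.6%) included the non-traced value. The 1924 other non-traced cells lay between, with 507 CPM and 21.4% at 4 or more genes. Isg15 alone stood at 606.5 CPM in the traced endothelial cells. Its ependymal level was 7.88 CPM in the non-traced library (15 UMIs) and 0.394 CPM in the traced library (18 UMIs). The genes did not all go this way: Ifit1 stood at 3.68 CPM and 1.34 CPM, and Rsad2 at 6.31 CPM and 6.57 CPM.

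**Figure D5:**
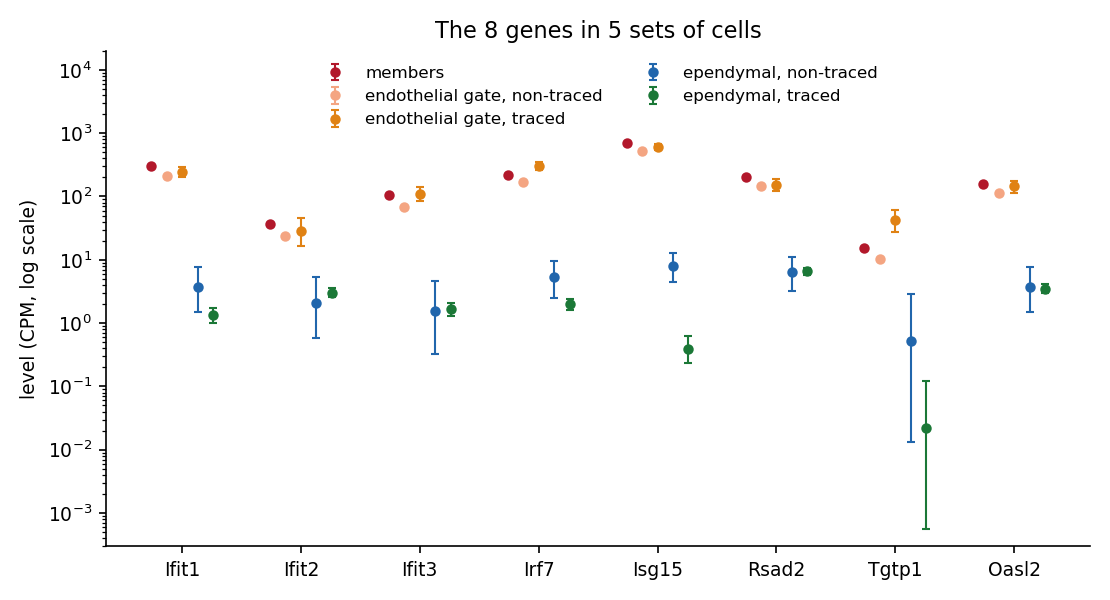
Level (CPM, log axis) of each of the 8 genes in members, in the whole endothelial gate of either library and in ependymal cells of either library, with exact Poisson 95% intervals. Endothelial cells of both libraries lie at 10.4 CPM or more for every gene, and ependymal cells at 7.88 CPM or less.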

How the data were processed

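Single-cell RNA of sorted spinal cord cells was sequenced in 2 libraries (10x, 3′ ends). The authors aligned reads and made the deposited UMI counts per gene and cell with Cell Ranger 3.0.2, which runs STAR 2.5.1b, on mm10 with reporter sequences added. These are raw counts without normalisation and are not scaled for transcript length. The non-traced table held 25411 cells, 23436 genes and 233318692 UMIs, while the traced library had 4825 cells, 20453 genes and 46530507 UMIs, and a gene without a count is not listed. Cells were used as deposited and doublets were kept.

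Counts were summed over the cells of a set with Python 3.11.15, numpy 2.4.6 and scipy 1.17.1, scaled to CPM and compared as log2(CPM + 1) for genes with a mean of at least 10 CPM. A 2-fold difference was called, without a p-value, since members and reference came from the same library and each sort was 1 library. Sums carry exact Poisson and shares exact Clopper-Pearson 95% intervals, and 3 counts set the limit for a count of 0. Thinning to 1000 or 3000 UMIs drew UMIs at random within a cell, and the scripts were checked on simulated data. Gene positions are from GENCODE M21 and promoters from RefSeq, both GRCm38, the build of the files.

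The members, their rule and the gene lists were chosen with earlier results of these data known. Named genes were the 8 selecting genes, up to 6 with the highest differences per list, key genes of the pathway whatever their value, and the 20 largest differences upward and 10 downward. A few further list members are named as contrasts, chosen after their values were seen, as were the analyses by sex-linked RNA, haemoglobin and divided UMIs. The values of 1 gene that this rule names are not reported here, although it is counted in the list totals.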

Additional observations from a re-analysis of the deposited data

How the results depend on the processing

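No paired analysis was possible because each sort was 1 library. Under the alternatives run, the arterial difference stayed above 0. The interferon genes at least 2-fold higher ran from 20 (of 67 tested, at a 50 CPM minimum) to 46 (of 154, with no filter). Without thinning, the venous difference (1.38 points) and the capillary difference (0.672) reversed sign, and the arterial one was 35.2. At 3000 UMIs the arterial and capillary differences were 23.8 and -0.229 points. The share of members in the gate was 65.3% with 3 or more and 33.0% with 5 or more genes, 18.8% with the rule applied at 3000 UMIs, 45.5% without cells carrying markers of another type, 46.6% without cells with both Xist and Y-linked UMIs, and 58.0% and 43.6% in Xist and Y-linked cells. Genes at least 2-fold higher numbered 88 of 23414 with no filter and 33 of 3440 with a 50 CPM minimum, where 20 interferon genes were higher. Genes at least 2-fold lower, few in number, were 5 with 3 or more genes, 109 with the reference standardised to the members' depth, 30 at 3000 UMIs, 96 with no filter, 5 at 50 CPM, 0 without cells carrying markers of another type, 5 without haemoglobin-rich and S100a8-rich cells, 30 in Xist and 17 in Y-linked cells. In the standardised reference, the deepest 2 of 5 depth classes rested on 33 and 9 cells. Against it 39 of 109 interferon genes were higher, with a median of 0.71, and 63 of all 8443 genes tested. The median of the interferon genes was 0.87 at 3000 UMIs. The capillary difference was -4.45 points without cells carrying markers of another type and -3.94 in Xist cells, where the venous one was -5.38. Cells with 2 or more of the 8 genes were 58.9% and 71.4% of the endothelial and 0.257% of the traced ependymal cells at 3000 UMIs, and 81.2%, 94.9% and 1.19% without thinning. Depth limits the lowest genes most: a reference gene with no UMI could be at up to 0.369 CPM.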

Other observations

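Stmn2, a neuronal microtubule regulator in the list of neuron markers, stood at 219 CPM in members and 97.2 CPM in the reference, while Snap25 of the same list was at 1.20 CPM and 1.97 CPM. Immediate early and heat shock genes, which dissociation can induce, were high in both sets. Of 21 genes 0 passed 2-fold and the median difference was -0.10, with Fos at 3580 CPM against 3449 CPM, Jun at 4366 CPM against 5046 CPM and Hspa1a at 1698 CPM against 2376 CPM. Dcn, a fibroblast proteoglycan, was at 15.7 CPM against 3.20 CPM, and Col1a1 had 119 UMIs in members and 0 in the reference. Both genes had a mean under the 10 CPM minimum. Dcn had a UMI in 2.07% of members and 1.42% of reference cells, and Col1a1 in 0.185% of members.

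The gamma-activated site, searched as TTCNNNGAA, which reads alike on both strands, was in a promoter of 25 of the 122 interferon-list genes and of 6 of the 11 GTPase genes among them, against 2582 of 27025 genes over all (9.55%).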
